A study of Mus musculus with 10 samples.

Results

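Replication-independent histone variants are the histones that cells which no longer divide can still place into chromatin, and 8 of their genes were examined in the mouse main olfactory epithelium (MOE): H2az1, H2az2, H2ax, H3f3a, H3f3b, Macroh2a1, Macroh2a2 and H1f0. A gene was measured where the array's annotation gave it a probe set with no other gene symbol. By that rule 6 of the 8 genes had 7 probe sets, 2 for H2az1 and 1 each for H2az2, H2ax, H3f3a, Macroh2a1 and Macroh2a2, out of 19938 genes that had such a probe set. H3f3b had only probe sets that the annotation shares with another gene, and H1f0 was named by no probe set in the annotation used here. All 7 probe sets lay above the lower limit of signal used for testing. Their positions in the genome were not available, so whether any of them reads another copy of its gene was not tested.

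Whole MOE of 5-week old mice was profiled on 10 Affymetrix arrays of the Mouse Gene 1.0 ST design, 4 for H2be-GF mice and 6 for wild type (WT) mice. H2be-GF mice carry a transgene in which the promoter of Omp, the gene of olfactory marker protein, drives a FLAG-tagged copy of the olfactory H2B variant H2BE. WT mice are the controls without it. The line descends from a single founder crossed to C57Bl/6, the promoter acts in mature olfactory neurons, and a band of these neurons close to zone 2 of the epithelium keeps the transgene silent. The strain of the WT mice is not in the labels. Every array held RNA of several animals pooled together, with larger pools for H2be-GF than for WT, so the p-values measure the spread between pools whose size differs with genotype, and a fall in the number of cells of a type cannot be told apart from less RNA per cell. The comparison asks whether genes of other histone variants are expressed at another level when H2BE is forced into mature neurons.

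Canonical histones are made while DNA is copied, from clustered genes whose mRNAs end in a stem-loop rather than a poly(A) tail. Replication-independent variants come from scattered genes with polyadenylated mRNAs and are exchanged into chromatin by dedicated chaperones and remodellers. In long-lived neurons the variant H3.3 gradually replaces canonical histone H3. H2A.Z marks nucleosomes around transcription start sites, H3.3 is laid down in transcribed genes and at repeats, H2A.X is phosphorylated beside DNA breaks, the macroH2A proteins carry a large extra domain and are linked to repressed chromatin, and linker histone H1.0, the product of H1f0, accumulates in differentiated cells.

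Over the series, array medians ranged from 7.74 to 7.91 on the log2 scale, and any 2 arrays correlated at 0.969 to 0.988. Of 23194 probe sets tested with limma, 20 were called at an adjusted p under 0.05, or 0.0862% of those tested. Hist2h2be, the endogenous gene of H2BE, lay at 11.84 ± 0.07 (SD, n = 4) in H2be-GF and at 12.07 ± 0.05 (SD, n = 6) in WT, with a log2 difference of -0.23 (SE 0.06, limma adjusted p = 0.297). The study reports that this line expressed the transgene far above the endogenous gene by quantitative PCR. The Hist2h2be probe set did not read higher in H2be-GF, and whether it reads the transgene was not tested. Omp itself, the defining gene of mature olfactory neurons, stood at 12.78 ± 0.03 (SD, n = 4) and 12.88 ± 0.04 (SD, n = 6). This marker of the labelled tissue was thus among the strong signals of both genotypes. The study built the transgene from the Omp gene region with its coding sequence replaced. Whether the Omp probe set reads the transgene is not known here.

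No histone variant gene of the 6 passed the test, in either direction. The log2 difference, H2be-GF minus WT, was below 0 at 6 of the 7 probe sets and above 0 at that of Macroh2a2, with a median of -0.07 over the 6 genes, against a median of 0.01 over all probe sets tested, of which 47.4% lay below 0. The unadjusted p was under 0.05 at 0 of the 7 probe sets, against 8.43% of all those tested. The differences ranged from -0.10 to 0.03. In linear terms the 95% intervals of limma ran no lower than -15.6%, at H2ax, and no higher than 11.96%, at Macroh2a2, so that a larger difference in the pooled tissue lay outside all 7 intervals.

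**Figure D1:**
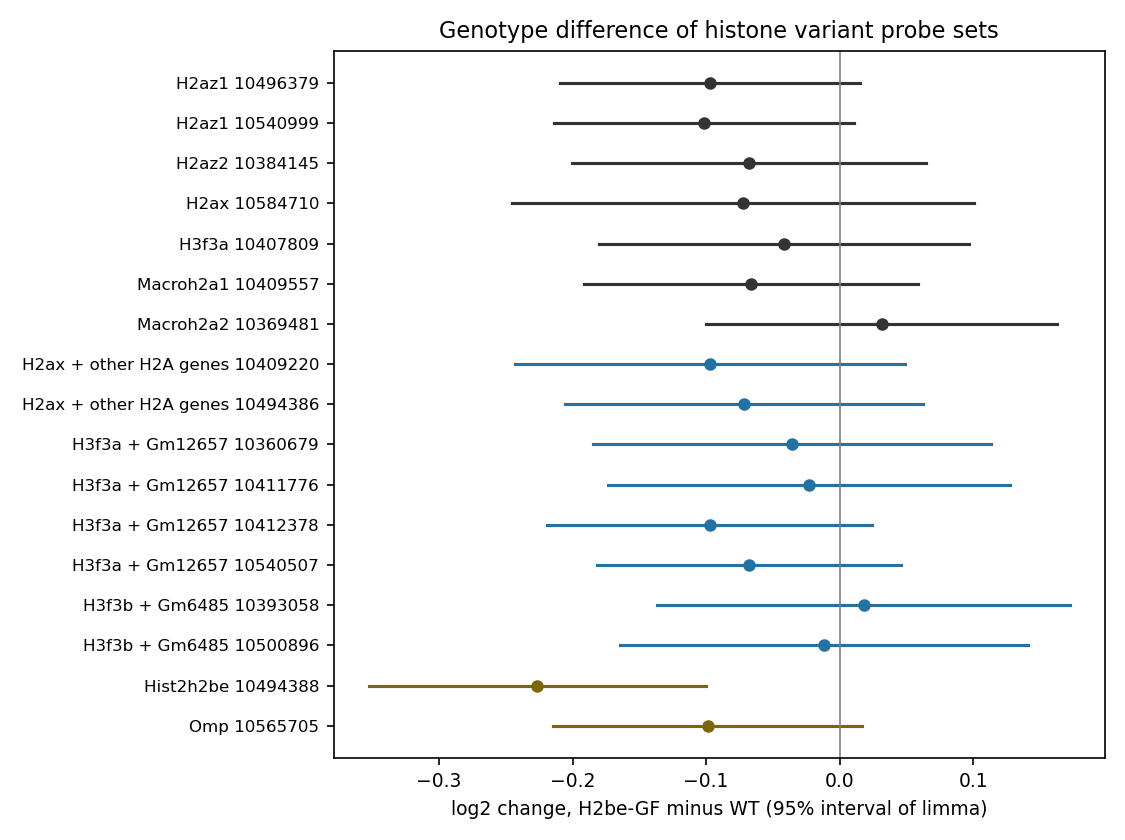
Log2 difference between H2be-GF and WT (horizontal axis, H2be-GF minus WT) for each probe set of the histone variant genes, with points for the fitted difference and bars for limma's 95% interval over 4 H2be-GF and 6 WT arrays. Dark rows are probe sets with 1 gene symbol, blue rows probe sets shared with other genes, and the bottom rows show Hist2h2be and Omp. Every interval of a histone variant row includes 0, while that of Hist2h2be does not. The intervals are not adjusted over the array, and Hist2h2be was not called (limma adjusted p = 0.297).

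H2az1 and H2az2 code for the H2A.Z proteins, which differ at few residues. H2az1 showed the lowest values relative to WT among the variants measured. Its brighter probe set (10496379) read 11.58, 11.61, 11.60 and 11.56 in H2be-GF replicates 1 to 4, and from 11.63 through a median of 11.69 to 11.71 in the 6 WT arrays. Each H2be-GF array thus lay below each WT array. The means were 11.59 ± 0.03 (SD, n = 4) and 11.68 ± 0.03 (SD, n = 6), and the log2 difference was -0.10 (SE 0.05, 95% interval -0.21 to 0.01, limma adjusted p = 0.657), or -6.53% in linear terms (-13.5% to 1.04%).

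The other H2az1 probe set (10540999) gave 11.13, 11.09, 11.06 and 11.11 in H2be-GF and from 11.16 through a median of 11.20 to 11.24 in WT. Here too the genotypes did not overlap. The log2 difference was -0.10 (SE 0.05, 95% interval -0.21 to 0.01, limma adjusted p = 0.634), or -6.79% (-13.8% to 0.755%). The annotation lists the same transcripts for both probe sets, which followed each other over the 10 arrays (Pearson r = 0.83, Spearman rho = 0.818), so they are no independent measures of the gene. Over all probe sets tested, the H2be-GF arrays lay wholly below the WT arrays at 1.6% and wholly above them at 1.29%.

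H2az1 varied little within a genotype. Its values there varied by an SD of 0.03 at either probe set, against a median of 0.15 over all probe sets tested. Only 0.069% and 0.0647% of these varied less, but these shares are not matched for signal level. Among mature olfactory neuron markers the within-genotype SD ran from 0.04 (Omp) to 0.14 (Gng13). Limma draws each spread towards a common value, here 0.14, which took the SE of H2az1 from 0.02 to 0.05 on the log2 scale. An exact two-sided permutation test over the 210 ways to split the arrays gave p = 0.00476 at each probe set. This is the smallest p these splits allow, and a gene without overlap between genotypes can reach it. That p is for a gene read after its values were seen and is not adjusted over the array.

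H2az2 was less sharply separated. Its probe set (10384145) read 10.34, 10.30, 10.30 and 10.27 in H2be-GF, and from 10.26 through a median of 10.37 to 10.51 in WT. The highest value belonged to WT 1 and the lowest to WT 5, and the H2be-GF arrays fell between them. The log2 difference was -0.07 (SE 0.06, 95% interval -0.20 to 0.06, limma adjusted p = 0.80, exact permutation p = 0.162).

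The sequence before the start of a gene takes part in setting its transcription, and the promoters of the H2A.Z pair are printed because H2az1 was the variant whose genotypes did not overlap and H2az2 is its closest relative. Each is given 5′ to 3′ on the strand of the gene, from 250 bases before to 50 bases after the RefSeq start on GRCm38.p6, with capitals for CCAAT or its reverse complement ATTGG, the letters of the CCAAT box. The promoter of H2az1 lies at chr3:137864237-137864536 on the plus strand and that of H2az2 at chr11:6444394-6444693 on the minus strand.
H2az1: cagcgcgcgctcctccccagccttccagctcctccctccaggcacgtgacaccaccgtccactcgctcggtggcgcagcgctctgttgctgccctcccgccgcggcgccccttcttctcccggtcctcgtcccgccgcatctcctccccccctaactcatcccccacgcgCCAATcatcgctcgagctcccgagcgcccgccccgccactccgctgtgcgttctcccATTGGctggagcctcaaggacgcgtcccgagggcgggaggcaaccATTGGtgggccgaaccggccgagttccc
H2az2: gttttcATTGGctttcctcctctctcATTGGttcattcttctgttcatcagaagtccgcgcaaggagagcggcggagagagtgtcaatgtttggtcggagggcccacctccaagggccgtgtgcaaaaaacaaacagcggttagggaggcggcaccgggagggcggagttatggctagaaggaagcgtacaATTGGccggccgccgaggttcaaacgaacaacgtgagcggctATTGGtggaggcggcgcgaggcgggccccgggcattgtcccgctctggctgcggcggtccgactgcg
The H2az1 window held 3 matches to CCAAT over both strands and the H2az2 window 4, whereas 37.4% of 32851 promoters of this length held any and 11.7% held 2 or more. TATAAA, the letters of the TATA box, were in neither window (13.6% of all promoters), and GGGCGG, the letters of the GC box, occurred 2 times in H2az1 and 1 time in H2az2 (35.7% of all promoters). Both strands were searched, no match in these windows overlapped a match to another motif, and a match describes the sequence only. Of the other variants, the promoter of H3f3b held 4 matches to CCAAT and 1 to TATAAA, that of H3f3a 1 to CCAAT and 6 to GGGCGG, that of Macroh2a1 2 to GGGCGG, that of Macroh2a2 1 to CCAAT and that of H1f0 1 to GGGCGG. H2ax had no entry in the promoter table.

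**Figure D2:**
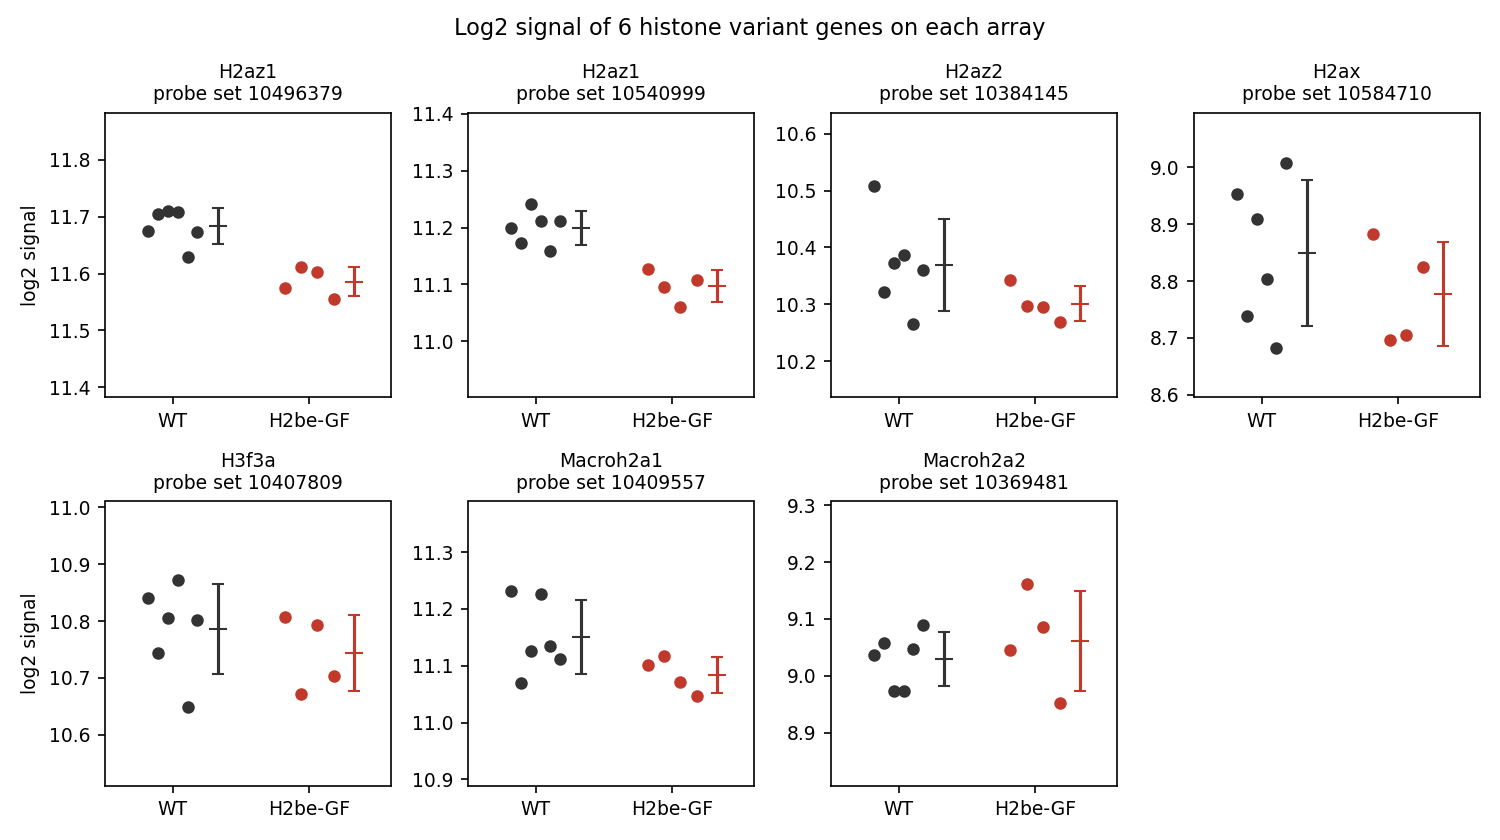
Log2 signal (vertical axes, each panel spanning its own range of equal width) of the 7 probe sets of 6 histone variant genes in WT (black, n = 6) and H2be-GF (red, n = 4), with 1 point per array and bars for the mean ± SD. At both H2az1 probe sets the red points sit below all black points, and in the other panels the genotypes overlap.

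H2ax codes for H2A.X, the variant that is phosphorylated around DNA double-strand breaks, and its gene yields mRNA both with and without a poly(A) tail. Its probe set (10584710) read 8.88, 8.70, 8.71 and 8.82 in H2be-GF, and from 8.68 through a median of 8.86 to 9.01 in WT. The H2be-GF arrays lay within the range of WT, of which WT 1, WT 3 and WT 6 stood above all of them, and this was the most variable of the measured variants. The log2 difference was -0.07 (SE 0.08, 95% interval -0.25 to 0.10, limma adjusted p = 0.844, exact permutation p = 0.343). The annotation also names H2ax in 2 probe sets with many H2A genes, which differed by -0.10 (limma adjusted p = 0.727) and -0.07 (limma adjusted p = 0.787) and cannot be assigned to any of these genes.

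H3f3a and H3f3b both code for the same H3.3 protein, the replacement form of histone H3. The annotation gives probe set 10407809 to H3f3a alone. It read 10.81, 10.67, 10.79 and 10.70 in H2be-GF, and from 10.65 through a median of 10.80 to 10.87 in WT. Its genotypes overlapped, with WT 5 the lowest array, as it was for H2az2 and H2ax. The log2 difference was -0.04 (SE 0.06, 95% interval -0.18 to 0.10, limma adjusted p = 0.902, exact permutation p = 0.405).

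H3f3b was read only together with Gm6485, by 2 probe sets. In the first (10393058) the H2be-GF arrays averaged 12.49 ± 0.11 (SD, n = 4) and the WT arrays 12.48 ± 0.09 (SD, n = 6), a log2 difference of 0.02 (95% interval -0.14 to 0.17, limma adjusted p = 0.967). In the second (10500896) the averages were 12.46 ± 0.13 (SD, n = 4) and 12.47 ± 0.06 (SD, n = 6), with a difference of -0.01 (95% interval -0.16 to 0.14, limma adjusted p = 0.978). H2be-GF replicate 2 gave the highest value of all arrays at either probe set, at 12.65 and 12.62. A further 4 probe sets were shared by H3f3a and Gm12657, and their differences ran from -0.10 to -0.02 with no call. How much of these signals comes from the H3.3 genes was not tested.

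Macroh2a1 and Macroh2a2 code for the macroH2A proteins. The probe set of Macroh2a1 (10409557) read 11.10, 11.12, 11.07 and 11.05 in H2be-GF, and from 11.07 through a median of 11.13 to 11.23 in WT. WT 1 and WT 4 stood above the other arrays and the rest intermingled. The log2 difference was -0.07 (SE 0.06, 95% interval -0.19 to 0.06, limma adjusted p = 0.790, exact permutation p = 0.105).

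Macroh2a2 was the variant with a difference above 0. Its probe set (10369481) read 9.05, 9.16, 9.09 and 8.95 in H2be-GF, and from 8.97 through a median of 9.04 to 9.09 in WT. H2be-GF replicate 2 was the highest of the 10 arrays and H2be-GF replicate 4 the lowest. The log2 difference was 0.03 (SE 0.06, 95% interval -0.10 to 0.16, limma adjusted p = 0.924, exact permutation p = 0.486), and it was -0.002 without H2be-GF replicate 2.

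Measured variants other than H2ax were also steady within a genotype. Their within-genotype SD on the log2 scale was 0.07 for H2az2, 0.07 for H3f3a, 0.05 for Macroh2a1 and 0.06 for Macroh2a2. All lay at or under the 6.90 percentile of the probe sets tested, which were not matched for signal level. H2ax, with 0.12, stood at the 30.4 percentile. Leaving out any array, or taking another scaling, filter or variance model, gave no member a limma adjusted p below 0.524. The sign stayed below 0 in each of the 22 alternatives to the limma fit at the probe sets of H2az1, H2az2, H2ax, H3f3a and Macroh2a1. Alternatives that changed only the filter or the variance model left the difference itself unchanged, so they could not turn its sign. At H2az1 no subset of the arrays could turn it either, as the genotypes did not overlap.

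Strong signals as a class lay lower in H2be-GF, and H2az1 was among them. Among the 1106 probe sets with a mean above 11, the level of both H2az1 probe sets, the median log2 difference was -0.03, 63.3% lay below 0 and at 5.15% each H2be-GF array was below each WT array. Among the 301 with a mean above 12, the median was -0.04, with 77.7% below 0 and 8.97% without overlap in that direction. These level classes were chosen after the values were seen. The H2az1 differences of -0.10 lay lower than the median of their class, and the part of this lean in the H2az1 values was not tested.

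**Figure D3:**
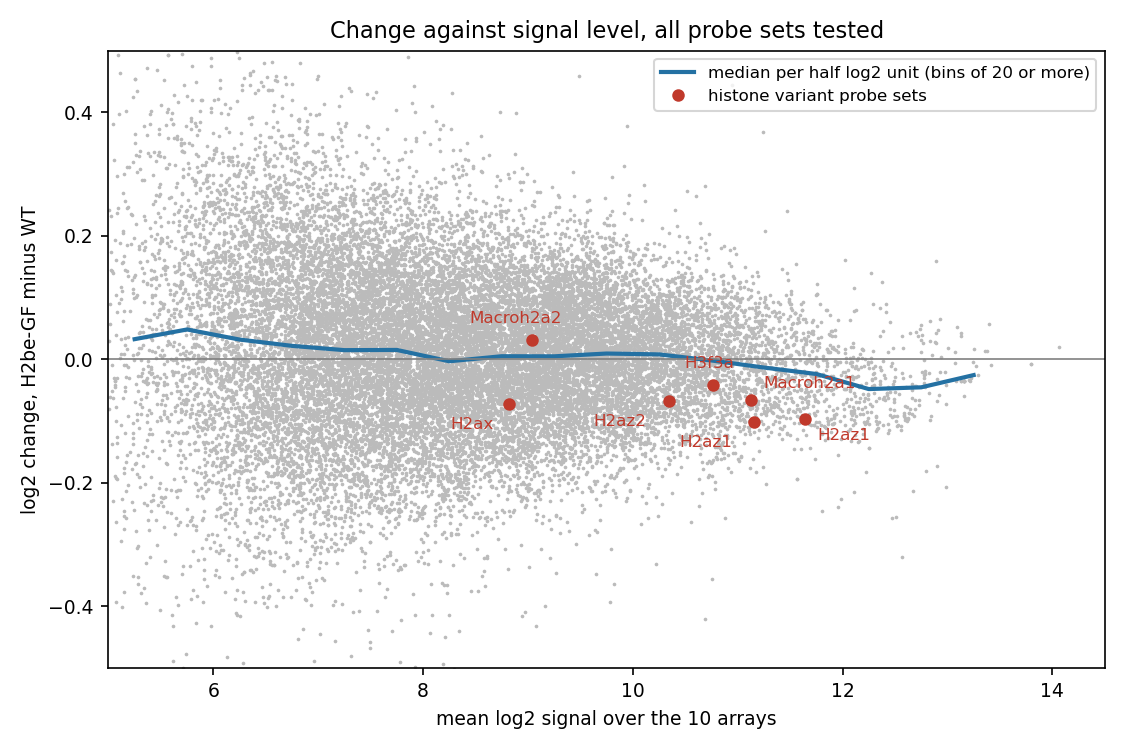
Log2 difference (vertical axis, H2be-GF minus WT) against mean log2 signal over the 10 arrays (horizontal axis) for the probe sets tested, in grey, with the median along the signal axis in blue and the 7 histone variant probe sets in red; 99 probe sets lie outside the vertical range of ±0.5. The blue line passes below 0 at strong signals, and the H2az1 points lie below it among probe sets that spread little.

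Markers of several cell types lay lower in H2be-GF as well, and many cell types express H2az1. Of 12 mature olfactory neuron markers 10 lay lower in H2be-GF, with a median log2 difference of -0.07 and none called. Omp, Cnga2 and Rtp1, all with a mean above 11, did not overlap between genotypes (Omp -0.10, limma adjusted p = 0.659). Most of the 12 markers had a mean above 11. Of all probe sets above that level, 63.3% lay below 0 and 5.15% lay lower in H2be-GF without overlap. The summed level of the 12 markers ran from 15.49 to 15.55 in H2be-GF and from 15.55 to 15.64 in WT. All 5 respiratory ciliated cell markers lay lower (median -0.16, none called), and their summed level did not overlap, at 11.66 to 11.76 in H2be-GF and 11.80 to 11.98 in WT.

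Dividing cells also use H2A.Z and H2A.X. Of 16 markers of dividing cells tested 13 lay lower in H2be-GF, with a median of -0.09 and none called, and their summed level ran from 12.89 to 13.05 in H2be-GF and from 12.97 to 13.14 in WT. Mki67, a protein of cycling nuclei, differed by -0.16 (SE 0.08, limma adjusted p = 0.647), the replication clamp gene Pcna by -0.09 (SE 0.06, limma adjusted p = 0.714) and topoisomerase gene Top2a by -0.02 (SE 0.08, limma adjusted p = 0.969). Of the 8 markers of immature neurons 4 lay higher and 4 lower, with a median of -0.004. None of the markers in 10 further lists was called, and the summed level of each list overlapped between genotypes. Lower in H2be-GF were both blood markers tested (median -0.27), all 4 skeletal muscle markers (median -0.06), all 3 bone and cartilage markers (median -0.05) and 3 of 4 horizontal basal cell markers (median -0.09). Higher were all 4 sustentacular cell markers (median 0.04), 4 of 6 immune markers (median 0.06) and 3 of 4 endothelial markers (median 0.07). The medians were -0.002 for 5 globose basal and progenitor genes, 0.01 for 4 ensheathing glia genes and -0.17 for 2 vomeronasal genes, in each of which values lay on both sides of 0. The part of these cell types in the values of the variants was not tested.

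Of the remodellers, chaperones, readers and partners of the variants none was called. Of 44 genes tested from a list of 47, 27 lay higher and 17 lower in H2be-GF, with a median log2 difference of 0.03, against 0.01 over all genes tested. For the 23 genes listed as loading, removing or reading H2A.Z the differences ran from -0.16 to 0.15 with a median of 0.06. Meaf6, a subunit of the TIP60 acetyltransferase complex, differed by 0.15 (SE 0.06, limma adjusted p = 0.510) with each H2be-GF array above each WT array, and Ing3, of the same complex, by 0.15 (SE 0.07, limma adjusted p = 0.571).

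The 9 genes that load or read H3.3 had a median of 0.03. The lowest unadjusted p belonged to Ubn2 and Ubn1, subunits of the HIRA complex that places H3.3 outside replication, at 0.22 (SE 0.07, limma adjusted p = 0.411) and 0.19 (SE 0.07, limma adjusted p = 0.522). For the 8 genes tested of the kinases, readers and exchange factors of H2A.X the median was 0.01, with Prkdc, a kinase that phosphorylates H2A.X, at 0.15 (SE 0.09, limma adjusted p = 0.679) and Mdc1, which binds the phosphorylated form, at -0.15 (SE 0.10, limma adjusted p = 0.70). For 4 genes tested of the partners of macroH2A and linker histones it was -0.02, with the chaperone gene Set at -0.12 (SE 0.09, limma adjusted p = 0.751) and Parp1, whose protein macroH2A binds, at 0.06 (SE 0.08, limma adjusted p = 0.893).

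Histone genes outside the group were compared in lists that leave out H2B genes other than Hist2h2be and the testis gene H2bc1, because the transgene carries an H2B sequence, and none of those listed was called. Among 9 other variant histone genes 4 lay higher and 5 lower, with a median of -0.02. Hist2h2be, at -0.23, was the only one without overlap, and H2bc1 differed by 0.19 (SE 0.08, limma adjusted p = 0.522). Among 17 replication-coupled genes of H1, H2A, H3 and H4 the median was -0.01, with H4c9 at 0.28 (SE 0.08, limma adjusted p = 0.344, no overlap) and H1f1 at -0.16 (SE 0.07, limma adjusted p = 0.555). Whether the histone variants differ from these genes was not tested, as members were chosen by name and not drawn at random.

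**Figure D4:**
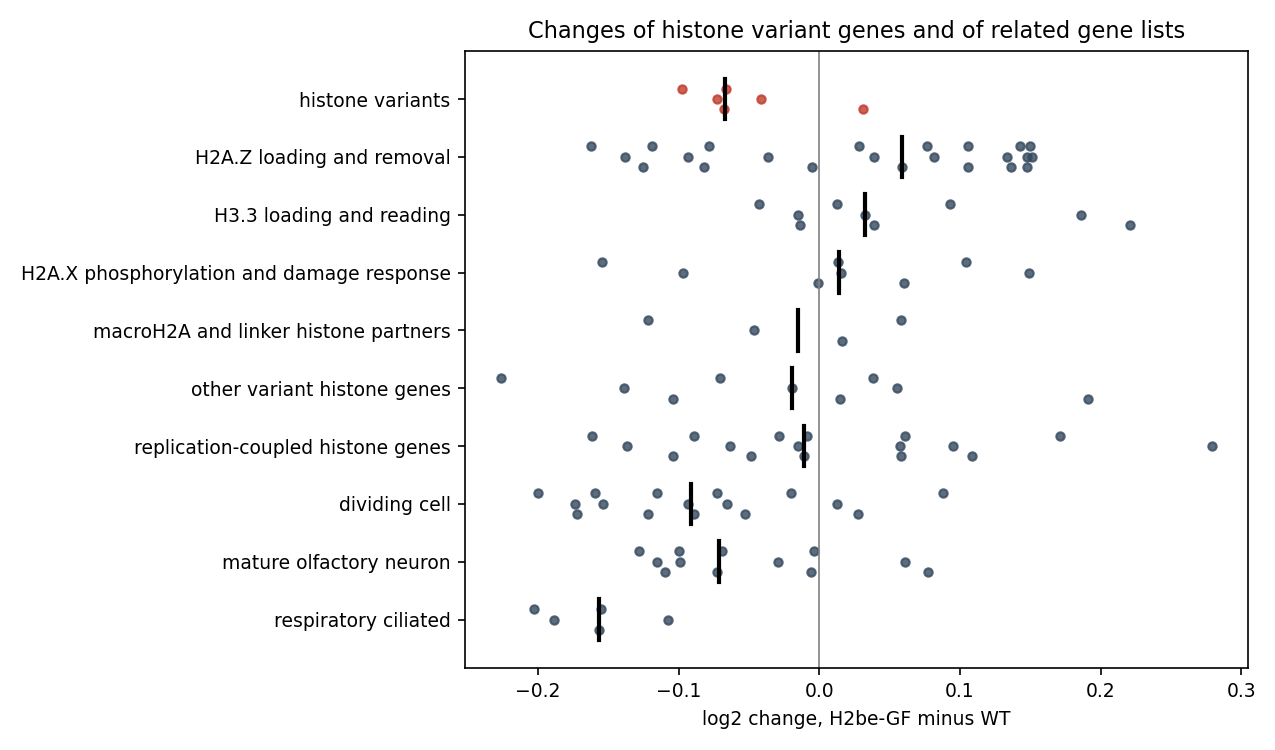
Log2 difference (horizontal axis, H2be-GF minus WT) of each gene tested in the histone variant group (red) and in lists of related genes and cell type markers (dark), at the brightest probe set of a gene, with vertical bars for the median of a list. The variant genes, with a median of -0.07, lie lower than most loading and reading genes, and of the lists drawn the respiratory ciliated markers have the lowest median, at -0.16.

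By the design text the animals were males and females in equal mixture, and Xist, the RNA that coats the inactive X chromosome of females, was high on 5 arrays, 2 H2be-GF and 3 WT, and low on the other 5, again 2 and 3. H2az1 lay lower in H2be-GF within both sets, by log2 differences of -0.10 and -0.09 in the arrays high in Xist and -0.09 and -0.11 in those low in Xist. As each H2be-GF array lay below each WT array at both H2az1 probe sets, any split of the arrays gives this sign. H2az2 differed by -0.08 and -0.05, H2ax by -0.08 and -0.07, H3f3a by -0.06 and -0.03 and Macroh2a1 by -0.03 and -0.10, in the same order of sets. Macroh2a2 differed by 0.08 and -0.02. A limma test of the difference between the sets called none of the 7 probe sets (lowest adjusted p = 1.00), and 0 had an unadjusted p under 0.05.

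Among themselves the variants varied together in part, and whether other pairs of genes did so as much over these arrays was not tested. Over the 10 arrays H2az2 and H3f3a had a Pearson r of 0.751 (permutation p = 0.00842, adjusted over 15 pairs 0.0632) and a Spearman rho of 0.891 (permutation p = 0.00114, adjusted 0.0171), and r was 0.816 without the 2 arrays farthest from the median of H2az2. H2az2 and Macroh2a1 had an r of 0.767 (permutation p = 0.00797, adjusted 0.0632) and a rho of 0.564 (permutation p = 0.0973, adjusted 0.243), with r = 0.784 without the 2 farthest arrays. After removal of the genotype means r was 0.729 for the first pair and 0.684 for the second. H2az1 and H2az2 had an r of 0.546 (permutation p = 0.0928, adjusted 0.26), which was 0.522 without the 2 farthest arrays and 0.286 after removal of the genotype means. The 5 pairs with Macroh2a2 had an r from -0.328 to -0.148, none passing adjustment, and the sign did not hold throughout. Without the 2 farthest arrays r was -0.745 with H2az1, but 0.0848 with H3f3a and 0.290 with Macroh2a1, and after removal of the genotype means it was 0.164 with H2az1.

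The genes whose levels followed each variant most closely were found among all genes tested and are a description of 10 arrays. For H2az1 these were Exoc6 (r = 0.960, rho = 0.879), of the exocyst that tethers vesicles, and Dnajc9 (r = 0.956, rho = 0.939), a co-chaperone of histones H3 and H4. For H2az2 they were Fbxl6 (r = 0.941) and Thnsl1 (r = 0.937), for H2ax Reep3 (r = 0.956) and Men1 (r = 0.955), and for H3f3a Plppr3 (r = 0.971) and Creb3 (r = 0.940). Macroh2a1 was followed by Meis3 (r = 0.966) and Itgb2l (r = 0.927), and Macroh2a2 by Ppig (r = 0.946) and Ptcd3 (r = 0.937). None of these 12 genes was called between genotypes.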

How the data were processed

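Log2 values of 10 arrays were used as the authors deposited them. According to the study's methods, the authors checked the scans with arrayQualityMetrics and used Affymetrix Expression Console, with IterPLIER for the summary of a probe set and sketch-quantile normalization across arrays. Versions and the genome build are not given in the sources used here. Quantile normalization hides a shift shared by most genes. The deposited log2 values ran from 0 to 14.2 over 35556 probe sets.

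The platform annotation gave 21789 probe sets 1 gene symbol, 1621 several and 12146 none, and 21698 of those with 1 symbol matched a RefSeq gene table (GRCm38.p6), by which symbols were updated. H2be-GF and WT arrays were compared by limma 3.58.1 (R 4.3.3) without covariates, as a two-sided moderated test by lmFit and eBayes, over 23194 probe sets that had a symbol and averaged above 5, with Benjamini-Hochberg adjustment over all of them and a threshold of 0.05. Where a gene had several probe sets, lists took the one of highest mean. Summed levels are the log2 of summed linear values. The scripts were tested on simulated data. Plots were drawn with matplotlib 3.10.9.

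All 8 histone variant genes were to be described. Of each list of loading, reading and partner genes, and of other histone genes, called genes or otherwise the 2 of smallest unadjusted p were named, with Omp, Hist2h2be, Mki67, Top2a and Pcna, and for each variant the 2 genes of highest Pearson r. Members and lists were chosen with earlier results of these data known. Alternatives covered scaling, a constant of 16 added before log2, the variance model, array weights, replicate number, Xist, filters and leaving out each array. Expression of H1f0 was not analysed here.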

Additional observations from a re-analysis of the deposited data

Results flagged for a closer look

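Of 30 groups of arrays checked among the probe sets of the histone variants, 1 held an array far from the others, and chance alone gives such a gap in about 1 group of 20. In probe set 10412378, shared by H3f3a and Gm12657, WT 6 read 11.819 while the other 5 WT arrays lay between 11.94 and 11.96. The H2be-GF arrays lay between 11.80 and 11.88, so the genotypes overlapped through WT 6. The cause was not tested.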

How the results depend on the processing

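No histone variant gene was called in any of the 22 alternatives. The log2 difference ran from -0.12 to -0.08 and from -0.12 to -0.09 at the H2az1 probe sets, from -0.10 to -0.04 at H2az2, from -0.11 to -0.04 at H2ax, from -0.07 to -0.02 at H3f3a and from -0.10 to -0.03 at Macroh2a1. Macroh2a2 kept its sign in 20 of 22, turned to -0.0182 in the arrays low in Xist, and ran from -0.00197 (without H2be-GF replicate 2) to 0.0679 (without H2be-GF replicate 4) when 1 array was left out. The 22 include alternatives that cannot change a difference, such as another filter or variance model. A trended robust variance called 1 of the other histone genes lower, Hist2h2be, where the fit as reported called none. The cause was not tested.

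A pairing of the arrays by replicate number was not evident: same-numbered arrays deviated with correlations of 0.530, 0.219, -0.423 and 0.261, and 1 of 4 numbers matched best with its own. These correlations were not set against a reference, so they cannot exclude pairing for some numbers. With a replicate block H2az1 differed by -0.11 at both probe sets (limma adjusted p = 0.654 and 0.673). Over all probe sets 20 calls became 5 with the block, 114 with a trended robust variance, 36 with a mean above 7, 11 and 13 without H2be-GF replicate 1 or 3, 13 with 1-symbol probe sets only and 0 within either Xist set. The test between Xist sets called no variant in any alternative run, the replicate block included, and has no meaning within a set. The number of arrays limits the precision.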
